A study of Mus musculus with 8 samples.

Results

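Genes of cholesterol and fatty acid synthesis were examined in whole colon tissue of transplanted mice. The mice had acute graft-versus-host disease, an attack of transplanted T cells on the host's organs. The gene list was chosen with earlier results of these data known, though the rule that names its genes uses no measured value. It held 36 genes, 23 of the sterol pathway and 13 of fatty acid synthesis, named by their known roles. A probe set was found for 33 of them, 21 sterol and 12 fatty acid genes, among the 19505 genes on the array. Acat2, Srebf1 and Scd2 were not matched to a probe set and are not analysed here. All recipients were WT BALB/c mice that had been lethally irradiated and transplanted with C57BL/6 bone marrow and T cells on day 0. The PBS group (4 mice) was given PBS by mouth and the hBD-2 group (4 mice) 1.2 mg/kg hBD-2, human beta-defensin 2, a small antimicrobial peptide of epithelial cells, from day 0 to day 7. The colon was taken on day 7, with 1 Affymetrix array per mouse, and no mice without the disease or without irradiation are among these samples. The comparison asks what oral hBD-2 did to these genes in the diseased colon.

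Cells build cholesterol from acetyl-CoA through mevalonate, isoprenoid units, squalene and lanosterol, and build fatty acids from the same acetyl-CoA through malonyl-CoA. Many enzymes of both routes are switched on together by sterol regulatory element binding proteins (SREBP), membrane-bound transcription factors that SCAP escorts to the Golgi when sterols are scarce and that INSIG proteins hold in the endoplasmic reticulum when sterols are plentiful. Renewing colon epithelium needs both products for new membranes.

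SREBP act on promoters through sterol regulatory elements, commonly beside sites for the factors NF-Y and Sp1, so promoter windows of 300 bases, from 250 before to 50 after the annotated start, were read from RefSeq for the build GRCm38.p6. A window was found for 27 of the 33 genes, 5 of them with more than 1, and Fads1, Fdft1, Fdps, Scd1, Sqle and Stard4 had none. The motifs searched on both strands were TCACNCCAC (a core of the sterol regulatory element), CCAAT (the NF-Y box) and GGGCGG (the GC box of Sp1). Shown are Hmgcs1, whose window was the only one of the 27 genes with the sterol element letters, and Mvk, Insig1, Acss2 and Acly, which had an unadjusted p under 0.05 and a single window. Capitals mark a match to any of the 3 motifs on either strand (CCAAT appears as ATTGG and GGGCGG as CCGCCC on the other strand).
Hmgcs1: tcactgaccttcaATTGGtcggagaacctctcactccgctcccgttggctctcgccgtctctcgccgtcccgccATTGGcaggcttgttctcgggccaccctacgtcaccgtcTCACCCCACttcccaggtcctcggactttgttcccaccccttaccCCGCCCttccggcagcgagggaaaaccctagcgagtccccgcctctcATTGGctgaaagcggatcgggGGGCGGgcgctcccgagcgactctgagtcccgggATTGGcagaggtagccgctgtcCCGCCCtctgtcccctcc
Mvk: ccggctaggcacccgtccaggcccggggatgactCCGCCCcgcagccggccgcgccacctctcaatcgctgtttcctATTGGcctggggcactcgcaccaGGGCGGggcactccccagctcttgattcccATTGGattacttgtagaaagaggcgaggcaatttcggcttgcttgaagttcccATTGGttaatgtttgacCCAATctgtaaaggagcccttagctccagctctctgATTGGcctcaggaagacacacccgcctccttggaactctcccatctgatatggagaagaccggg
Insig1: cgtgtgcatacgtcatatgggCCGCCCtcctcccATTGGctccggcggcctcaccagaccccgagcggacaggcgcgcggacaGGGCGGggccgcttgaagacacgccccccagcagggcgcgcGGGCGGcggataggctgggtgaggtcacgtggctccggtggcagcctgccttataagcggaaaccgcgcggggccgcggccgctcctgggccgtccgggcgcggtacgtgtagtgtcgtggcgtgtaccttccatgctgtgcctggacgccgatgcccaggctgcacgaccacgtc
Acss2: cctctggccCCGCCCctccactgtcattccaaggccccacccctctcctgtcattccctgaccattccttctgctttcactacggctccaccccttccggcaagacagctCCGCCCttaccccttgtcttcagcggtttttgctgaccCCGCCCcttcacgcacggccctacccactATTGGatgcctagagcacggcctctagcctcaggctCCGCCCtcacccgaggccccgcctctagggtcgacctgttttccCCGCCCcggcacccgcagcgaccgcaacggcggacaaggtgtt
Acly: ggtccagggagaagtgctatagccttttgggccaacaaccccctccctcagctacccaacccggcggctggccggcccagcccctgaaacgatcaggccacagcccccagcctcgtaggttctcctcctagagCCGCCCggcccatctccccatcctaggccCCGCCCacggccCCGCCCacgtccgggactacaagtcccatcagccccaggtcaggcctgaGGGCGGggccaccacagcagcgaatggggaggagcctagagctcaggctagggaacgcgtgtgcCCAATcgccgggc
These windows lie at chr13:119690101-119690400 (Hmgcs1, plus strand), chr5:114444019-114444318 (Mvk, plus strand), chr5:28071162-28071461 (Insig1, plus strand), chr2:155517793-155518092 (Acss2, plus strand) and chr11:100527951-100528250 (Acly, minus strand), each spanning the gene's annotated start. The sterol element match of Hmgcs1 began 137 bases before the start, and no matches overlapped within these 5 windows. Mvk held 5 CCAAT boxes, and Hmgcs1 held 4, whereas Insig1, Acss2 and Acly held 1 each. Acss2 held 5 GC boxes, Acly 4, Insig1 and Hmgcs1 3 each, and Mvk 2.

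Over all windows of the list, CCAAT was found in 23 of 34 (67.6%), against 37.4% of all 32851 windows and 37.9% of those of genes on the array. GGGCGG was in 23 of 34 (67.6%), against 35.7% of all windows and 47.9% of those of genes on the array. By subgroup it was in 19 of 23 sterol windows (82.6%) and 4 of 11 fatty acid windows (36.4%). By gene, 16 of the 17 sterol genes with a window held CCAAT in at least 1 window, and 7 of the 10 fatty acid genes did, against 42.2% of the genes on the array with a window. In Fasn 2 CCAAT matches on opposite strands overlapped. TCACNCCAC was in 1 of 34 windows (2.94%), against 1.24% of all windows. A match is a description of letters in the window and says nothing of binding in these mice.

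None of the 33 genes passed an adjusted p of 0.05 by limma, where 8 of all 19505 genes did (0.0410%), and the lowest adjusted p was 0.189 for Scd1. The hBD-2 mean was above the PBS mean for 27 of 33 genes (81.8%), against 53.5% of all genes, with a median log2 difference (hBD-2 minus PBS) of 0.14 where the median gene of the array stood at 0.012. In the same limma fit, 6 genes had an unadjusted p under 0.05 with the hBD-2 mean higher (18.2%, against 5.85% of all genes) and 0 with it lower (against 5.98%). They were Scd1, Acss2, Acly, Pmvk, Mvk and Insig1. This count was 17, 16 higher and 1 lower, when hBD-2 4 was left out (2425 of all 19505 genes in that fit). It was 3 when PBS 1 (1746 of all genes) or hBD-2 1 (1957 of all genes) was, a share near that of all genes. Levels did not overlap between the groups for 2 genes with the hBD-2 mice higher, Mvk and Lss (6.06%, against 2.80%), and for 0 genes with them lower (against 3.60%). Genes of a pathway vary together, so these counts are not 33 separate observations. Whole tissue was measured, so more cells of a kind and more RNA per cell cannot be told apart.

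In genes of the posterior colon, 2 arrays differed from the remaining 6. These were hBD-2 1 and hBD-2 3, called the pair from here on, and differences without the pair are given beside those over 8 arrays. Without the pair, only hBD-2 2 and hBD-2 4 are compared with the 4 PBS mice. Of these 2, hBD-2 4 was the lowest of 8 arrays for 9 of 16 sterol enzymes. Relative to the mean of all arrays, the 9 measured posterior colon genes averaged 1.14 and 0.88 log2 units in the pair and -0.47 to -0.16 elsewhere. The lowest p between the treatment groups in this list fell on Hoxd12, Hoxd13, Hoxd10 and Scnn1g. Of these, Hoxd13 and Scnn1g were high in the pair, and Hoxd10 was highest in hBD-2 2 and hBD-2 4. Hoxd12 did not set the pair apart, at 5.75 to 5.89 in the hBD-2 mice and 5.33 to 5.68 in the PBS mice. Genes of small intestine and proximal colon (11 measured, with Fabp6, Lct, Rbp2 and Apoa4 lowest in p) averaged -0.25 and -0.30 in the pair, against -0.14 to 0.057 in the PBS mice, 0.31 in hBD-2 2 and 0.32 in hBD-2 4. All 16 colon epithelium markers, with Car4, Slc26a3, Cdx1 and Tff3 lowest in p, had a probe set, and their mean level was 11.16 to 11.30 log2 units in PBS and 11.23 to 11.34 in hBD-2 mice. Of these markers 12 had a higher and 4 a lower hBD-2 mean, with a median difference of 0.059. At an unadjusted p under 0.05 in limma 4 of the 16 were higher (against 5.85% of all genes) and 0 lower (against 5.98%). The 4 were Car4 by 0.39, Slc26a3 by 0.33, Tff3 by 0.26 and Cdx1 by 0.21. Levels of 3 of the 16 did not overlap between the groups, with the hBD-2 mice higher (against 2.80% of all genes). Without the pair 13 of the 16 were higher, and the median was 0.080. In that setting 0 had an unadjusted p under 0.05 in limma (against 7.35% of all genes higher and 5.48% lower). The part of the epithelium in the synthesis values was not tested. Without the pair, 23 of the 33 synthesis genes had a higher hBD-2 mean (69.7%, against 55.4% of all genes), and their median was 0.055, where that of the whole array was 0.020. At an unadjusted p under 0.05 in limma, 2 were then higher (6.06%, against 7.35%) and 2 lower (against 5.48%). With the posterior colon mean as a covariate the members' median was 0.069. That mean was high in the pair alone, so this fit is close to leaving the pair out. The part of colon position in the difference was not tested beyond these values.

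**Figure D1:**
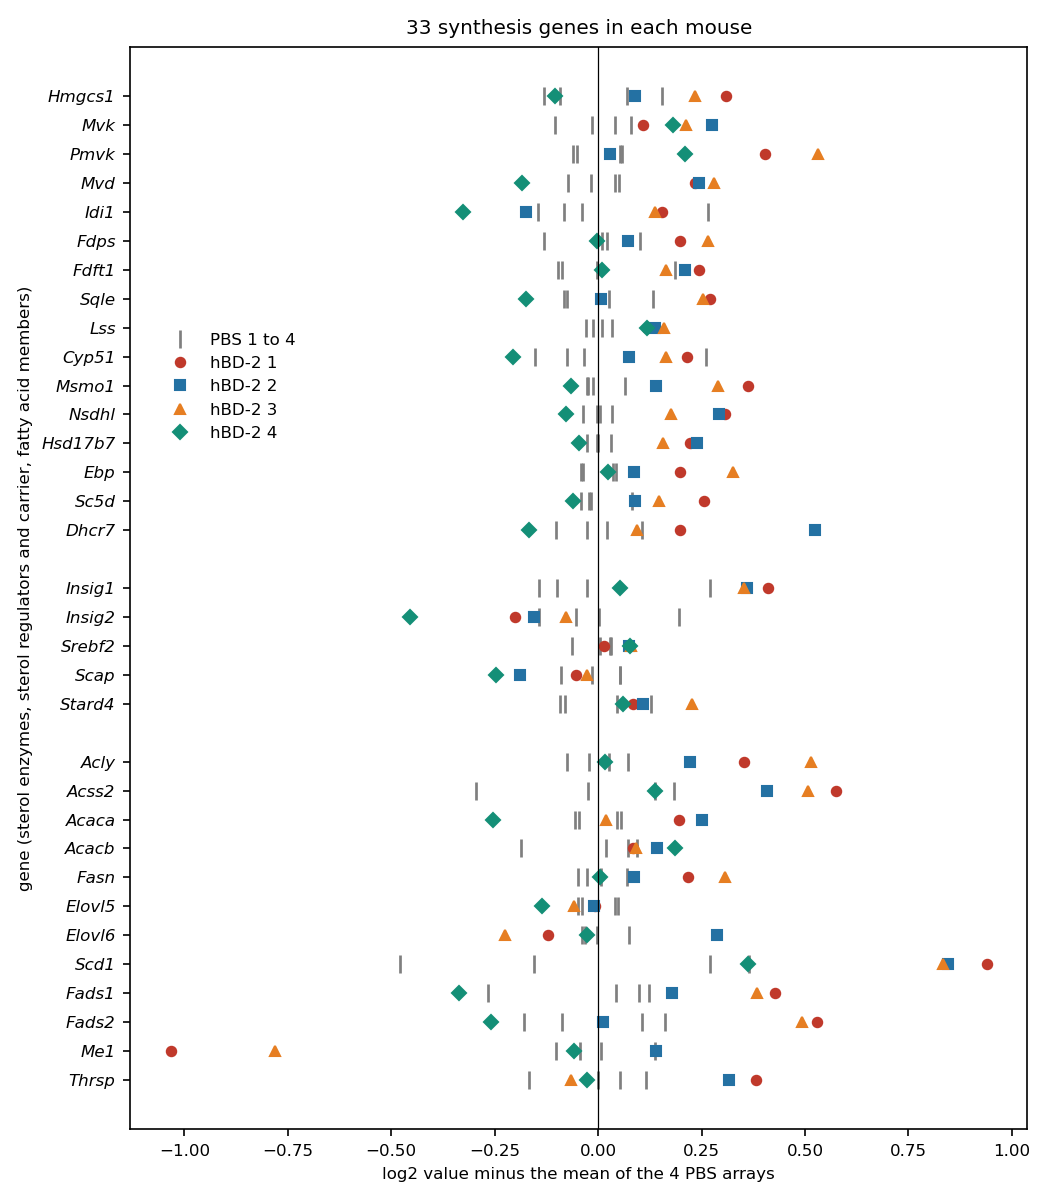
Each row is a gene and each symbol an array, with the log2 value minus the mean of the 4 PBS arrays on the horizontal axis (grey bars PBS mice, coloured symbols hBD-2 mice). For sterol enzymes the arrays hBD-2 1 and hBD-2 3 sit to the right in most rows, and hBD-2 4 is the lowest of 8 arrays in 9 of 16.

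Among the sterol enzymes, 3 of the 4 hBD-2 mice were mostly high and the other was mostly low. Of the 16 enzymes, 15 had a higher mean in hBD-2 mice (93.8%, against 53.5% of all genes), with a median difference of 0.14. At an unadjusted p under 0.05 by limma 2 of 16 were higher (12.5%, against 5.85% of all genes) and 0 lower (against 5.98%). Without the pair 12 were higher and 4 lower, with a median of 0.046. With hBD-2 4 left out instead, 16 were higher and 0 lower, with a median of 0.20. The array hBD-2 1 was above all 4 PBS arrays for 14 of 16 enzymes, hBD-2 3 for 12 and hBD-2 2 for 10. By contrast, hBD-2 4 was above them for 3, was above the PBS mean for 5, and was the lowest of all 8 arrays for 9. Relative to the mean of all arrays the 16 enzymes averaged 0.17, 0.077, 0.16 and -0.12 in hBD-2 1 to 4, and -0.14, -0.073, -0.068 and 0.0072 in PBS 1 to 4. The group means were 0.069 and -0.069, and the SD among hBD-2 mice was 0.13. Among the PBS mice, PBS 1 was the lowest PBS array for 12 of 16 and PBS 4 the highest for 10.

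Hmgcs1, HMG-CoA synthase, acts early in the pathway, before mevalonate. Its levels were 11.59, 11.63, 11.80 and 11.88 log2 units in PBS 1 to 4 and 12.03, 11.81, 11.96 and 11.62 in hBD-2 1 to 4. The pair was the highest of 8, and hBD-2 4 lay among the lower PBS mice. The difference was 0.13 (95% interval -0.10 to 0.37), and -0.0071 without the pair.

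The next 3 enzymes act on mevalonate and its phosphates. Mvk, mevalonate kinase, stood at 7.22, 7.30, 7.36 and 7.40 in PBS mice and 7.43, 7.60, 7.53 and 7.50 in hBD-2 mice. All 4 hBD-2 mice lay above all PBS mice, by a narrow gap at hBD-2 1. The difference was 0.19 (SE 0.073, adjusted p = 0.342 by limma), and 0.23 without the pair. Pmvk, phosphomevalonate kinase, stood at 8.56, 8.66, 8.55 and 8.67 in PBS mice and 9.01, 8.64, 9.14 and 8.82 in hBD-2 mice. Here hBD-2 2 lay within the PBS range and the other 3 above it. The difference was 0.29 (SE 0.11, adjusted p = 0.332 by limma), and 0.12 without the pair. Mvd, mevalonate decarboxylase, was at 8.33 to 8.45 in PBS mice, at 8.64 to 8.68 in 3 hBD-2 mice and at 8.22 in hBD-2 4, below every PBS mouse. Its difference of 0.14 was 0.030 without the pair.

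The isoprenoid and squalene steps come next. Idi1, the isomerase of isopentenyl diphosphate, was the 1 sterol enzyme with a lower mean over all 4 hBD-2 mice, at -0.052 (95% interval -0.34 to 0.24). Without the pair it stood at -0.25, and Hmgcs1, Sqle and Cyp51 were on the lower side too. Its highest value, 10.78, was in PBS 4 and its lowest, 10.19, in hBD-2 4. Fdps, which makes farnesyl diphosphate, differed by 0.13 (0.035 without the pair) and Fdft1, squalene synthase, by 0.16 (95% interval -0.040 to 0.35, 0.11 without the pair). Sqle, squalene epoxidase, a control point of the late pathway, was at 9.88 and 9.87 in the pair, 9.62 in hBD-2 2, 9.44 in hBD-2 4 and 9.53 to 9.74 in PBS mice. Its difference of 0.090 was -0.083 without the pair.

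Lss, lanosterol synthase, closes the sterol rings, and its standard error was the lowest of the 33 genes. It stood at 9.74, 9.78, 9.76 and 9.80 in PBS mice and 9.89, 9.91, 9.93 and 9.89 in hBD-2 mice. The groups did not overlap, and the group SDs were 0.027 and 0.019. The difference was 0.13 (95% interval -0.0046 to 0.27, adjusted p = 0.436 by limma), 0.12 to 0.14 with any single array left out, and 0.13 without the pair. The moderated standard error of limma, which borrows from the spread of all genes, was 0.062, above both group SDs.

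The enzymes that turn lanosterol into cholesterol ranged in difference from 0.061 for Cyp51, the lanosterol demethylase, to 0.18 for Msmo1, the methylsterol oxidase. Without the pair Cyp51 stood at -0.066 and Msmo1 at 0.037. Ebp, the sterol isomerase, stood at 9.32, 9.39, 9.40 and 9.32 in PBS mice and 9.56, 9.44, 9.68 and 9.38 in hBD-2 mice. The mice hBD-2 1, 2 and 3 lay above the PBS range and hBD-2 4 within it, with a difference of 0.16 (SE 0.081, adjusted p = 0.477 by limma), and 0.055 without the pair. Nsdhl, which removes the carboxyl group left by demethylation, and Hsd17b7, the ketoreductase of that step, differed by 0.17 and 0.14 (0.11 and 0.096 without the pair), with hBD-2 4 below every PBS mouse in both. Sc5d, the desaturase, differed by 0.11, and by 0.013 without the pair. Dhcr7, the last reductase before cholesterol, differed by 0.16 (0.18 without the pair) and had its highest value, 9.94, in hBD-2 2, against 9.25 to 9.62 in the other 7. None of the 16 enzymes passed over all genes.

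The regulators did not share a direction. Insig1, itself an SREBP target that feeds back on the pathway, stood at 9.61, 9.65, 9.72 and 10.02 in PBS mice and 10.16, 10.11, 10.10 and 9.80 in hBD-2 mice. The mice hBD-2 1, 2 and 3 lay above all PBS mice and hBD-2 4 below PBS 4. The difference was 0.29 (SE 0.11, adjusted p = 0.350 by limma), and 0.21 without the pair. Insig2, which holds SCAP in the same way without depending on SREBP for its expression, stood at 7.01, 7.26, 7.06 and 6.92 in PBS mice and 6.86, 6.90, 6.98 and 6.61 in hBD-2 mice. The 3 mice hBD-2 1, 2 and 4 lay below the PBS range. The difference was -0.22 (95% interval -0.45 to 0.0069, adjusted p = 0.433 by limma), and -0.31 without the pair.

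Scap, the escort of SREBP, differed by -0.13, with all 4 hBD-2 mice under the PBS mean of 8.73, and by -0.22 without the pair. Insig2 and Scap were the 2 members at an unadjusted p under 0.05 on the lower side in that setting (adjusted p = 0.365 and 0.369 by limma), where Mvk and Scd1 were on the higher side. Srebf2, the SREBP of the sterol branch, was nearly level, at 11.05 to 11.14 in PBS and 11.13 to 11.19 in hBD-2 mice, a difference of 0.061 (95% interval -0.081 to 0.20, 0.076 without the pair). Stard4, a cytosolic cholesterol carrier, differed by 0.12 (95% interval -0.053 to 0.29, 0.085 without the pair).

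**Figure D2:**
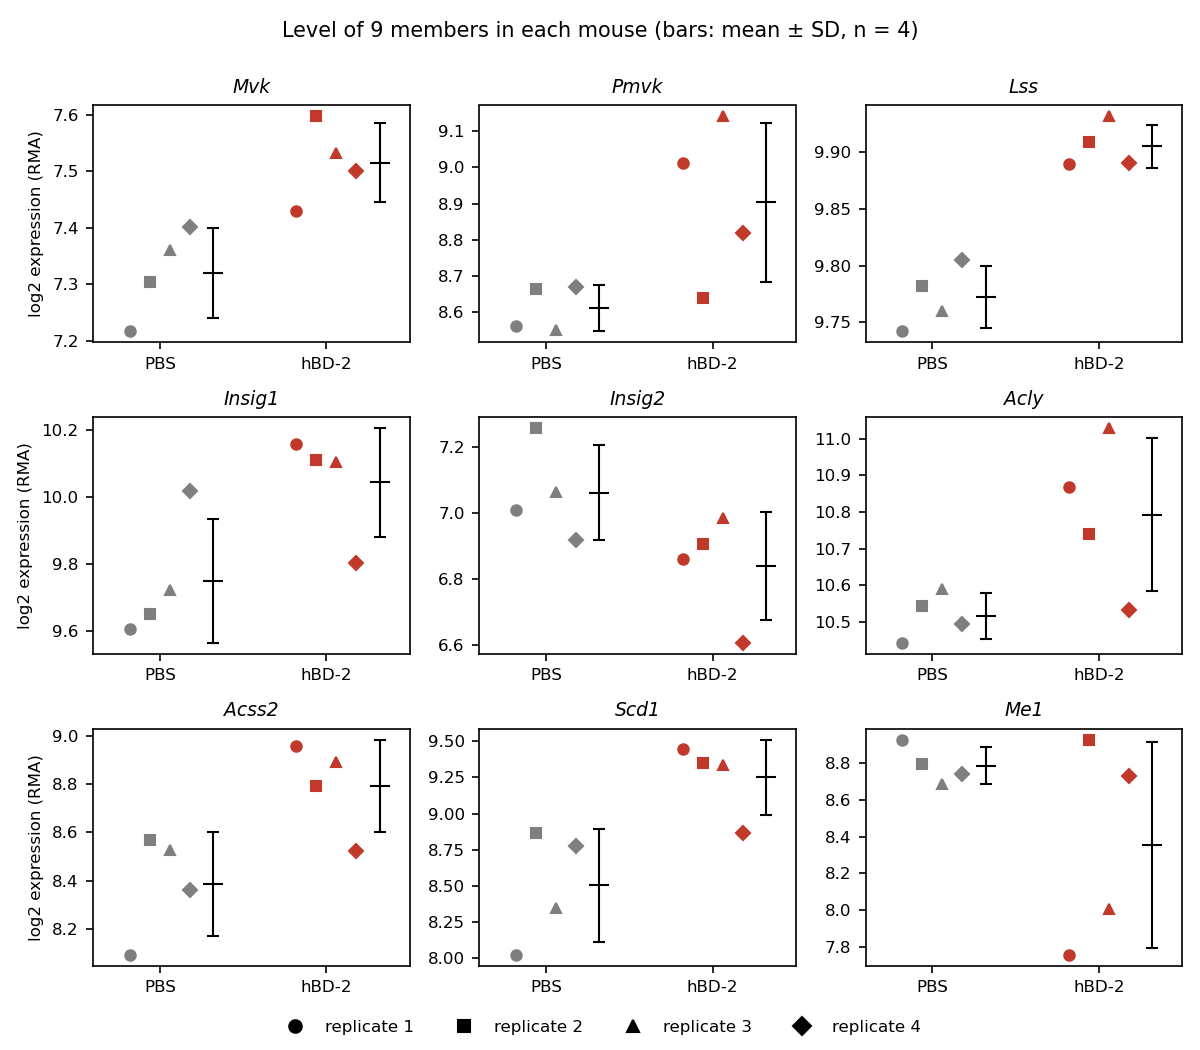
Each panel shows 1 gene, with the log2 level in every mouse of the PBS and hBD-2 groups, a symbol for each replicate number and the mean ± SD (n = 4) as a black bar. The vertical axes differ in range and do not start at 0. Mvk and Lss show no overlap between groups, whereas in Me1 the mice hBD-2 1 and hBD-2 3 lie far below all others.

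Fatty acid genes held the largest differences of the list. Scd1, stearoyl-CoA desaturase, which makes monounsaturated fatty acids, stood at 8.02, 8.87, 8.35 and 8.77 in PBS mice and 9.44, 9.35, 9.34 and 8.86 in hBD-2 mice. The mice hBD-2 1, 2 and 3 lay above all PBS mice, and hBD-2 4 was level with PBS 2. The mean was 1.68-fold higher (difference 0.74, SE 0.19, 95% interval 0.32 to 1.17), which did not pass over all genes (adjusted p = 0.189 by limma). The difference was 0.58 to 0.87 with any single array left out and 0.60 without the pair. The spread between PBS mice was itself wide, with an SD of 0.39.

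Acss2 and Acly supply acetyl-CoA, from acetate and from citrate. Acss2 stood at 8.09, 8.57, 8.53 and 8.36 in PBS mice and 8.96, 8.80, 8.89 and 8.52 in hBD-2 mice. Again the first 3 hBD-2 mice lay above the PBS range and hBD-2 4 within it. The difference was 0.41 (SE 0.13, adjusted p = 0.256 by limma), and 0.27 without the pair. Acly stood at 10.44, 10.54, 10.59 and 10.49 in PBS mice and 10.87, 10.74, 11.03 and 10.53 in hBD-2 mice. The first 3 hBD-2 mice again lay above the PBS range, hBD-2 3 highest, and hBD-2 4 within it. The difference was 0.28 (SE 0.10, adjusted p = 0.342 by limma), and 0.12 without the pair.

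The committed steps had smaller differences. Fasn, fatty acid synthase, stood at 9.56, 9.68, 9.58 and 9.61 in PBS mice and 9.82, 9.69, 9.91 and 9.61 in hBD-2 mice. The pair was highest, and hBD-2 4 lay within the PBS range. The difference was 0.15 (95% interval -0.029 to 0.34), and 0.046 without the pair. Acacb, the acetyl-CoA carboxylase of the mitochondrial surface, stood at 7.77, 7.49, 7.70 and 7.75 in PBS mice and 7.76, 7.82, 7.77 and 7.86 in hBD-2 mice. Among the 8, PBS 2 lay lowest, and the difference of 0.13 was 0.064 without it and 0.16 without the pair. Acaca, the cytosolic carboxylase that makes malonyl-CoA for synthesis, differed by 0.053 (95% interval -0.19 to 0.30), and by -0.0018 without the pair.

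Me1, malic enzyme, which supplies NADPH for synthesis, had the lowest difference of the list. It stood at 8.93, 8.80, 8.69 and 8.74 in PBS mice and 7.76, 8.93, 8.01 and 8.73 in hBD-2 mice. The pair lay below all others, hBD-2 4 within the PBS range and hBD-2 2 level with its top. The difference was -0.43 (SE 0.23, adjusted p = 0.487 by limma), and 0.041 (SE 0.11) without the pair.

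Among elongation and desaturation genes, Fads2, Fads1 and Elovl6 split between the pair and the other hBD-2 mice, and Elovl5 did not. Fads2 and Fads1, the desaturases of polyunsaturated fatty acids, differed by 0.19 and 0.16, and by -0.12 and -0.079 without the pair. In Fads2 the pair was at 11.58 and 11.54, against 10.79 to 11.21 in the other 6. Elovl6, the elongase of saturated fatty acids, ran the other way in the same mice, at 10.48 and 10.38 against 10.57 to 10.89 in the rest, for a difference of -0.021 (95% interval -0.26 to 0.22), and 0.13 without the pair. Elovl5, the elongase of polyunsaturated fatty acids, was at -0.053 (-0.072 without the pair). Thrsp, a nuclear protein linked to lipogenic gene expression, was at 5.47 in hBD-2 1, 5.41 in hBD-2 2 and 4.92 to 5.21 elsewhere. The Thrsp difference was 0.15 (0.14 without the pair). Its level was low, ranking at percentile 26.7 of all genes in mean level.

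Taken by array, hBD-2 2 was above all PBS mice for 10 of the 12 fatty acid genes, hBD-2 1 for 8, hBD-2 3 for 6 and hBD-2 4 for 1. The 12 genes averaged 0.14, 0.17, 0.094 and -0.11 in hBD-2 1 to 4 relative to the mean of all arrays, and -0.15, -0.027, -0.069 and -0.046 in PBS 1 to 4. The median difference was 0.15 over the 12 genes, 0.083 without the pair, and 0.078 to 0.21 with any single array left out, lowest without hBD-2 1 and highest without hBD-2 4. The pair held the highest 2 of 8 values for 7 of 16 sterol enzymes and 5 of 12 fatty acid genes. The share over all genes was 6.41%. Among these members were Hmgcs1, Pmvk, Sqle, Acly, Acss2, Fasn and Fads2. For the 5 sterol regulators and carrier the count was 0. The pair held the lowest 2 values for 2 members, Me1 and Elovl6, against 8.06% of all genes.

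**Figure D3:**
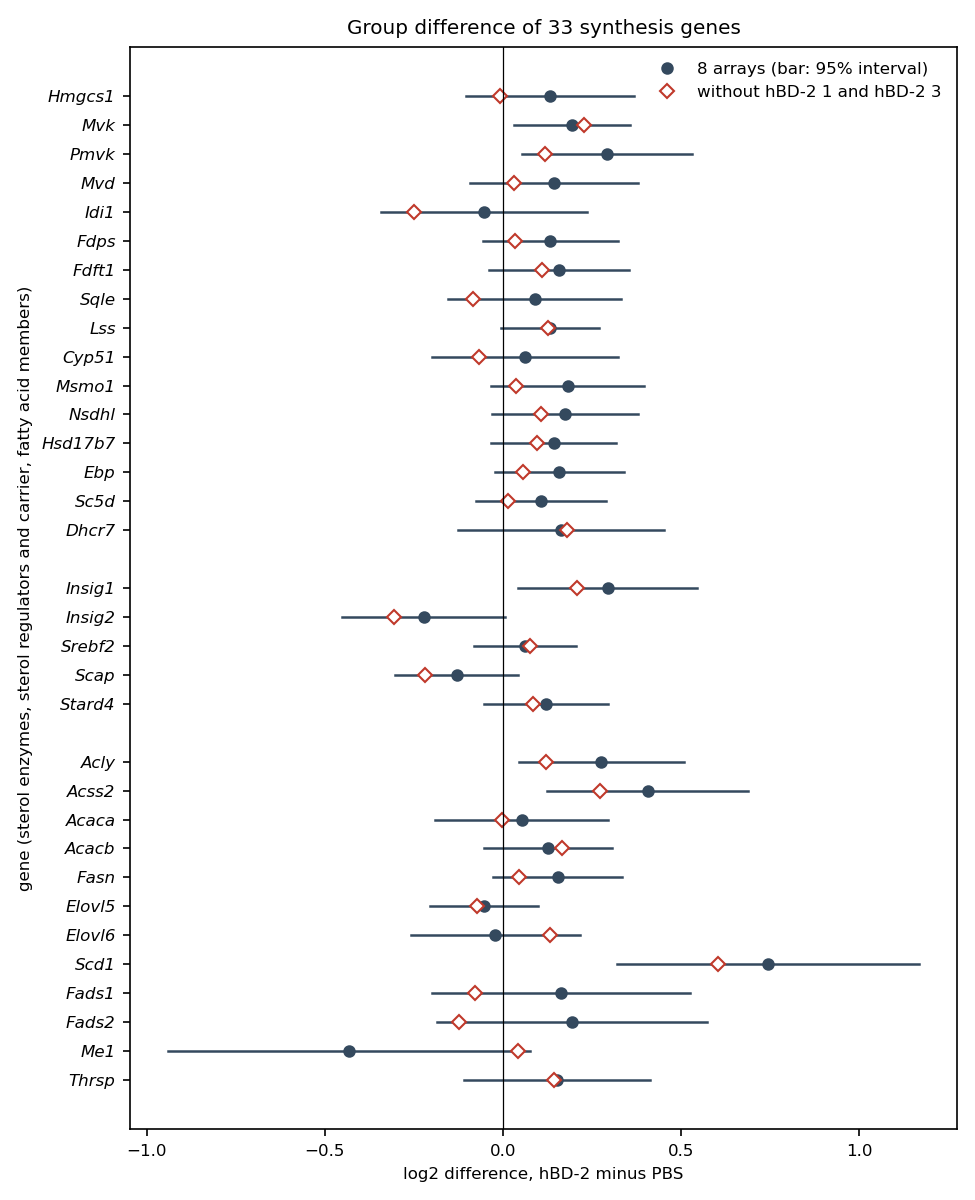
Filled points give the log2 difference (hBD-2 minus PBS) of each gene over 8 arrays with its 95% interval from limma, and open diamonds the difference without hBD-2 1 and hBD-2 3. Scd1 has the highest difference, 0.74, and Me1, at -0.43, moves to 0.041 without the pair.

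Other genes of the pathway were read from lists beside the members. Of 10 other sterol synthesis genes measured, 8 had a higher and 2 a lower hBD-2 mean, with a median difference of 0.048. At an unadjusted p under 0.05 by limma were 0 of them (against 5.85% of all genes higher and 5.98% lower). Without the pair 7 were higher and 3 lower, with a median of 0.037. Those with the lowest p were Acat1, the mitochondrial acetoacetyl-CoA thiolase, at 0.16 (0.092 without the pair), Nus1, a subunit of the dolichol-making enzyme, at -0.14 (-0.10), Ggps1, which makes geranylgeranyl diphosphate, at -0.15 (-0.16), and Erg28, a sterol scaffold protein, at 0.11 (0.043).

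Of 16 genes of cholesterol uptake, export and storage, 3 had a higher and 13 a lower hBD-2 mean. Of these, 2 were higher and 2 lower at an unadjusted p under 0.05 by limma (against 5.85% and 5.98% of all genes), with a median difference of -0.11. Without the pair 6 were higher and 10 lower, with a median of -0.038. Abcg5 and Abcg8, which together pump sterols into the gut lumen, differed by 0.30 (SE 0.11) and 0.33 (SE 0.10), and by 0.13 and 0.38 without the pair. Neither passed over all genes (adjusted p = 0.330 and 0.264 by limma). Both had low levels, with PBS and hBD-2 means of 5.60 and 5.89 for Abcg5 and 3.94 and 4.26 for Abcg8. In mean level they ranked at percentiles 33.9 and 12.3 of all genes. Nr1h3, the sterol-sensing receptor LXR alpha, stood at 7.68, 7.49, 7.52 and 7.36 in PBS mice and 7.16, 6.94, 7.27 and 7.15 in hBD-2 mice. The groups did not overlap, the hBD-2 mice being lower, with a difference of -0.38 (SE 0.095, adjusted p = 0.177 by limma), and -0.47 without the pair. Abca1, the cholesterol exporter that LXR induces, differed by -0.36 (adjusted p = 0.364 by limma), and by -0.17 without the pair. Macrophages express both genes, and the 12 macrophage markers measured (Aif1, Mrc1, Itgax and C1qa lowest in p) had mean levels of 8.27 to 8.55 in PBS and 7.80 to 8.05 in hBD-2 mice, with a median difference of -0.50 (-0.32 without the pair). Their part in the Nr1h3 and Abca1 values was not tested.

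Of 31 other genes of fatty acid and lipid synthesis, 14 had a higher and 17 a lower hBD-2 mean. Of these, 1 was lower and 0 higher at an unadjusted p under 0.05 by limma (against 5.98% and 5.85% of all genes). The median difference was -0.011 (-0.0076 without the pair). Acsl4, an acyl-CoA synthetase of polyunsaturated fatty acids, was at -0.20 (-0.15 without the pair), Agpat2, of glycerolipid synthesis, at -0.25 (-0.073 without the pair), Tecr, the last reductase of fatty acid elongation, at 0.17 (0.20 without the pair) and Mlxipl, the carbohydrate-responsive factor ChREBP, at 0.23 (0.11 without the pair).

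**Figure D4:**
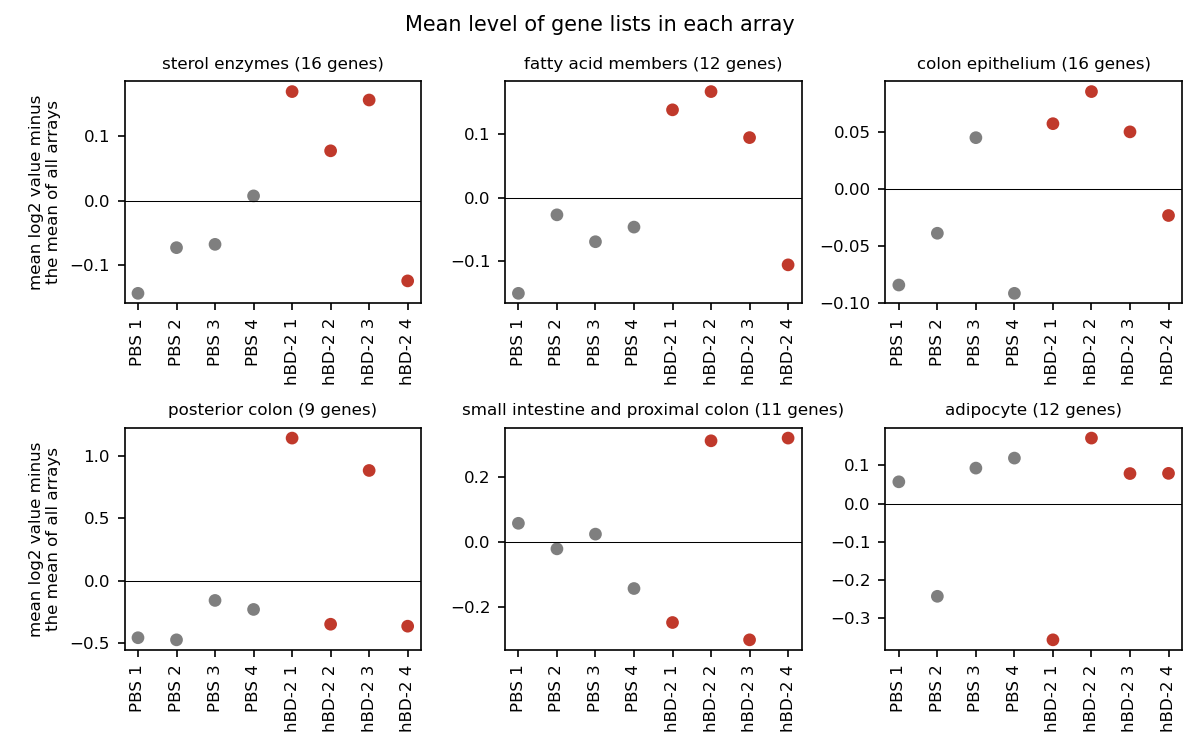
Each panel gives, for 1 gene list and each of the 8 arrays (PBS grey, hBD-2 red), the mean log2 value minus the mean of all arrays, on axes of different range. Sterol enzymes and fatty acid genes are low in hBD-2 4, while the posterior colon list is high in hBD-2 1 (1.14) and hBD-2 3 (0.88).

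Other cell types that make lipid or could be caught with the colon were read from their markers. The 12 adipocyte markers had a mean level of 6.56 to 6.92 log2 units in PBS and 6.45 to 6.98 in hBD-2 mice. Their level was lowest in hBD-2 1 and highest in hBD-2 2. Of these markers 8 had a higher and 4 a lower hBD-2 mean, with a median difference of 0.038 (0.15 without the pair). Those lowest in p went both ways, Lipe by -0.31, Fabp4 by -0.34, Aqp7 by 0.21 and Plin1 by 0.22. The 7 proliferation genes (lowest in p Birc5, Mcm5, Mcm2 and Top2a) had a median difference of 0.021 (0.0072 without the pair). Of these 7, 0 were at an unadjusted p under 0.05 by limma (against 5.85% of all genes higher and 5.98% lower). The 8 sebaceous and skin genes (Krt14, Awat1, Krt5 and Lor first) were at 5.02 to 5.18 in PBS and 5.19 to 5.41 in hBD-2 mice, highest in hBD-2 4, with a median difference of 0.16 (0.25 without the pair). The 8 liver and pancreas genes (Cpa1, Cela1, Serpina1a and Cyp2e1 first) were at 5.86 to 6.16 and 5.97 to 6.25, with a median difference of 0.077 (0.14 without the pair). Lymphocyte genes (Cd4, Cd3d, Nkg7 and Cd3g first), fibroblast genes (Vim, Col3a1, Lum and Col1a2 first) and smooth muscle genes (Tagln, Acta2, Myh11 and Cnn1 first) had median differences of -0.17, -0.51 and -0.16, and of -0.45, -0.31 and -0.063 without the pair. The part of these cell types in the values of the synthesis genes was not tested.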

How the data were processed

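Expression was measured in whole colon of 4 PBS and 4 hBD-2 mice, 1 array each, grouped by the sample titles. The deposited values are log2 expression for 22203 probe sets, and oligo and RMA are named per the submitters' processing notes, with no version. RMA corrects background, quantile-normalizes arrays and summarises probes, so an overall shift between mice is not visible, and signal over background cannot be read. Array medians were 6.77 to 6.82, and precision is limited by having 4 arrays a group. For the probes, a genome build was not given in the sources. By GEO's platform annotation 19572 probe sets had 1 gene, 0 had several and 2631 were unnamed. All named ones matched RefSeq identifiers of GRCm38.p6. For 55 genes with several probe sets, none of them a member, the one with the highest mean was kept, leaving 19505 genes.

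Differences (hBD-2 minus PBS) were tested two-sided in R 4.3.3 with limma 3.58.1 (lmFit, eBayes), with Benjamini-Hochberg adjustment over all 19505 genes and a threshold of 0.05. Intervals and standard errors are the moderated ones, and ± is the SD. The fit was tested on simulated data. Labels name 1 mouse per sample, so p-values measure the spread between these mice. Members and lists were chosen with earlier results of these data known, and lists were only described, with no test. Every array's value was given for the 6 members of each subgroup (sterol, fatty acid) with the lowest p, and 4 genes with the lowest p were named from every other list, among them Abca1 and Mlxipl, which the rule also lists by name. Single-array values of further members (Hmgcs1, Mvd, Idi1, Sqle, Dhcr7, Fads2, Elovl6 and Thrsp) fall outside this rule and were picked after their values were seen. Alternatives were an intensity trend, leaving out the lowest 25% or 50% of genes, centring, repeated quantile normalization, averaged probe sets, a block for replicate numbers, array weights, omission of arrays, and a posterior colon covariate. Figures were drawn with matplotlib 3.10.9.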

Additional observations from a re-analysis of the deposited data

Results flagged for a closer look

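In 4 of the 66 groups of 4 values (33 genes in PBS and in hBD-2 mice), 1 mouse lay far from the other 3 by Dixon's criterion, which chance gives in about 1 in 20 groups. Mvd was at 8.22 in hBD-2 4, with the nearest other hBD-2 mouse at 8.64. Insig1 was at 9.80 in hBD-2 4, with the nearest at 10.10. Msmo1 was at 9.08 in PBS 4, with the nearest at 9.01. Srebf2 was at 11.13 in hBD-2 1, with the nearest at 11.19.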

How the results depend on the processing

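No member passed an adjusted p of 0.05 by limma in any of the 18 alternatives, where the lowest adjusted p was 0.100 (Scd1, with array weights). Of 593 values of the 33 genes under the alternatives, 570 kept their direction and 23 did not, and 24 genes kept it in every one. By construction the intensity trend, the left-out lowest genes, averaged probe sets and the block leave each member's difference as it was. Values under these alternatives could not change direction, so they say nothing of stability. Members at an unadjusted p under 0.05 numbered 6 in the reported fit (2309 of all 19505 genes), 11 with an intensity trend and robust prior (2290 of all genes), 14 with array weights (12 higher and 2 lower, 2982 of all genes) and 3 to 17 with single arrays left out, lowest without PBS 1 or hBD-2 1 and highest without hBD-2 4, where 16 were higher and 1 lower (1746, 1957 and 2425 of all genes in these fits). Over all genes, 8 passed in the reported fit, 91 with the intensity trend, 16 and 47 with the lowest 25% and 50% left out, 4 with quantile normalization repeated, 68 with array weights, 0 to 11 with single arrays left out and 0 when the pair of hBD-2 1 and hBD-2 3 was omitted (2503 at an unadjusted p under 0.05). The median difference of the sterol genes was 0.098 to 0.20 and that of the fatty acid genes 0.078 to 0.21 with single arrays left out, both highest without hBD-2 4. The direction changed without this pair in Hmgcs1 (-0.0071), Sqle (-0.083), Cyp51 (-0.066), Acaca (-0.0018), Elovl6 (0.13), Fads1 (-0.079), Fads2 (-0.12) and Me1 (0.041), and with the posterior colon covariate in the same 8 genes (-0.017, -0.084, -0.070, -0.0067, 0.11, -0.072, -0.12 and 0.021). The covariate was high in the pair alone, so that fit is close to leaving the pair out and is no separate check. Idi1 turned to 0.040 with array weights. With single arrays left out Idi1 ranged from -0.12 to 0.039, Elovl6 from -0.12 to 0.046 and Acaca from -0.013 to 0.16. The cause of these changes was not tested. The replicate number as a block gave 0 genes past the threshold (2566 at an unadjusted p under 0.05). With the block, 6 members were at an unadjusted p under 0.05 by limma, 5 higher and 1 lower. The medians were unchanged, as a balanced block must leave them. Deviations of same-numbered mice correlated at -0.152, 0.139, 0.244 and 0.045 across genes, and 2 of 4 PBS arrays correlated best with their own number. Whether the numbers mark a shared batch or pairing was not tested.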
